A study of Mus musculus with 16 samples.

Results

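The genes described here encode the subunits of oxidative phosphorylation, the respiratory chain and ATP synthase of the inner mitochondrial membrane. Their messenger RNA was measured in liver from mice given ethinylestradiol (EE), a synthetic estrogen used to induce cholestasis, with or without MI763F, a compound known by its code name. Members were all rows of the expression table whose symbol begins with Nduf, Uqcr, Cox4i, Cox5, Cox6, Cox7, Cox8 or Atp5, the genes Sdha to Sdhd and Cyc1, and the mitochondrial-encoded mt-Nd, mt-Co, mt-Cytb and mt-Atp genes. Symbols of the pseudogene forms -ps and Gm were left out. This gave 104 of the 13006 genes in the table, 91 encoded in the nucleus and 13 in mitochondrial DNA. Of the nuclear genes 82 are counted as subunit genes, among them Ndufs6b and Ndufb4c, annotated as processed pseudogenes close in sequence to Ndufs6 and Ndufb4. The other 9 (Ndufaf1 to Ndufaf8 and Atp5s) carry a matching symbol but encode assembly factors or, for Atp5s, a protein outside the mature enzyme. All 104 passed the filter on low counts.

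All 16 poly(A) libraries were made from liver of a single mouse line, Humanized PXR-CAR-CYP3A4/3A7 in the labels. Controls too therefore carry the human genes for PXR and CAR, receptors that sense foreign compounds, and for CYP3A enzymes. The CV group (4 libraries) received the propylene glycol vehicle, and the EV group (4 libraries) received EE in propylene glycol, injected subcutaneously at 10 mg/kg for 7 days. The CM group (4 libraries) received no EE and was gavaged with MI763F (2.5 mg/kg, 6 days, starting on day 2), and the EM group (4 libraries) received EE and MI763F on the same schedules. Whether CV and EV mice were also gavaged, and whether each library came from its own animal, is not stated in the labels. The p-values therefore measure the spread between these libraries. Library totals ran from 14115384 to 21473227 estimated counts.

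Oxidative phosphorylation passes electrons from NADH and succinate along complexes I to IV to oxygen, and complex V uses the proton gradient this builds to make ATP. Complexes I, III, IV and V are assembled from products of both genomes, while complex II is wholly nuclear. Hepatocytes are rich in mitochondria and use this ATP for glucose and urea synthesis, secretion and bile formation. Mitochondrial-encoded transcripts are cut from long precursors that cover most of each strand of the circular genome, and nuclear genes are transcribed one by one.

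Scaling sets how the values below read. Levels are given as CPM, counts relative to the library total multiplied by a composition factor (TMM), which was 0.833 to 0.91 without EE and 1.1 to 1.23 with EE. Plain library totals moved the median of all genes by 0.49 (log2) for EV vs CV, by 0.38 for EM vs CM and by -0.11 for EM vs EV. Directions are therefore stated relative to the median of all genes, and what library totals gave is printed beside the main counts and some named genes. A fall or rise printed without it is on the TMM scale and need not be called with library totals. These are bulk samples, in which fewer cells of a type and less RNA per cell cannot be told apart. Across 9 hepatocyte markers (Alb, Ttr, Cps1 and others) the summed level was 90030 to 118000 CPM without EE. With EE it was 35820 to 43000 CPM in EV and 39790 to 58380 CPM in EM. For 12 macrophage markers it was 383 to 986 CPM without EE and 1894 to 3149 CPM with EE. No hepatocyte or macrophage marker measured was at 0 in every library. The part of these shifts in the results below was not tested.

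With EE alone, messenger RNAs for the nuclear-encoded subunits lay below controls in every complex, relative to the median gene. Of 91 nuclear members, 81 fell and 0 rose in EV vs CV, against 24.9% of all 12918 genes tested that fell and 25.5% that rose (edgeR's quasi-likelihood test, adjusted p under 0.05). Their median log2 fold change was -0.67, beside 0.00 for all genes. With library totals 36 fell and 3 rose (Ndufb3, Ndufaf1 and Ndufaf2), where 10.3% of all genes fell and 54.6% rose, and the median was -0.18 beside 0.49 for all genes. The distance of the members from the median gene was thus -0.67 on either scale. Of the 82 subunit genes 77 fell, and of the 9 assembly factors and Atp5s 4 fell. With library totals 36 of the 82 fell and 1 rose. The falls on that scale were 15 of 38 in complex I, 2 of 4 in complex II, 3 of 9 in complex III, 5 of 15 in complex IV and 11 of 16 in complex V.

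**Figure D1:**
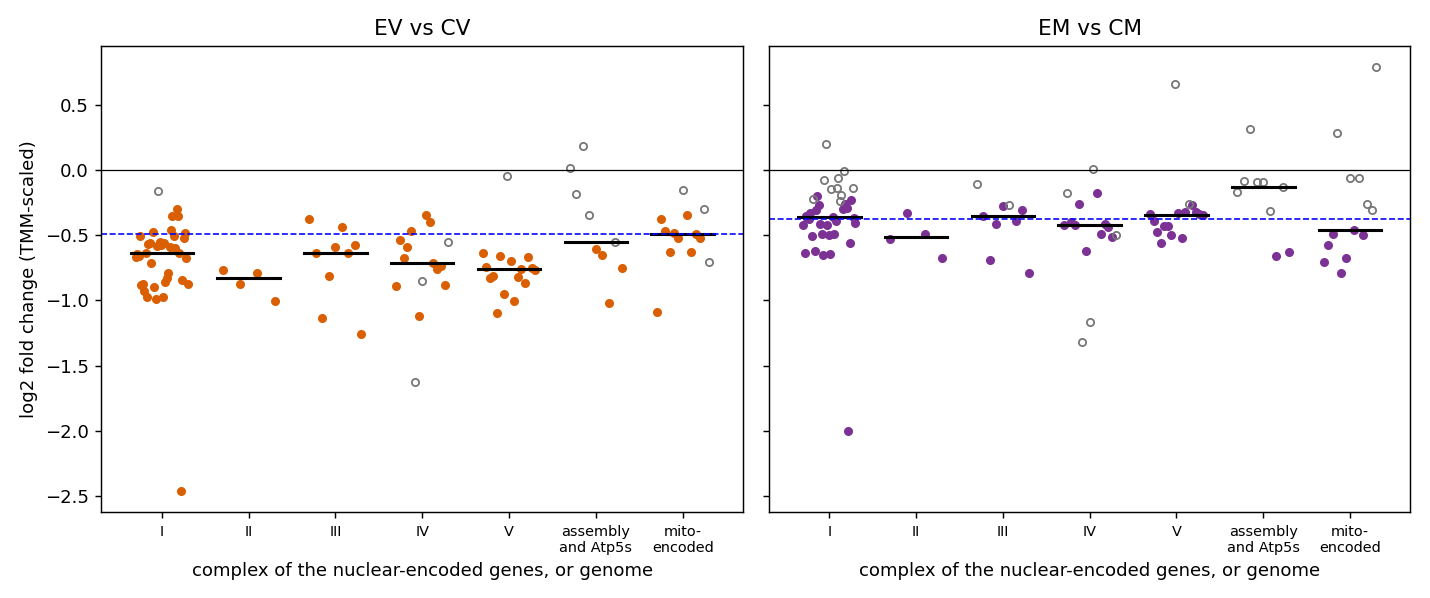
Log2 fold change of each member (points, y axis, TMM scale) by complex for nuclear genes and in one column for mitochondrial-encoded genes, in EV vs CV (left) and EM vs CM (right). Filled points passed an adjusted p of 0.05, open points did not, black bars are medians, and the dashed line marks about where 0 would lie with library totals. Nuclear medians lie between -0.63 and -0.83 in the 5 complexes on the left and between -0.34 and -0.51 on the right.

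Complex I, the NADH dehydrogenase, had 38 nuclear genes counted as subunits, with the pseudogenes Ndufs6b and Ndufb4c among them. Of these 37 fell, with a median of -0.63. Ndufs1, which carries iron-sulfur clusters of the peripheral arm, stood at 61.4, 67, 74.6 and 68.3 CPM in the CV libraries and at 50.4, 51.3, 55.5 and 55.1 CPM in the EV libraries. The groups did not overlap, and the log2 fold change was -0.35 ± 0.11 (SE; adjusted p = 0.012). Ndufv1, which binds NADH, ran from 127 to 139 CPM in CV and from 92 to 101 CPM in EV (-0.49 ± 0.13, adjusted p = 0.00494). With library totals both sat at the other side of 0, at 0.13 for Ndufs1 and 0.0003 for Ndufv1. The 7 nuclear core subunits all fell, with a median of -0.53, and of the 31 accessory subunits, which surround the catalytic core, 30 fell, with a median of -0.64. The one that did not pass was Ndufb3, at -0.17. The largest fall by the naming rule belonged to Ndufs6b (-2.46 ± 0.64, adjusted p = 0.00463), annotated as a processed pseudogene 96.6% identical over 348 bp to Ndufs6, at a mean of 38.6 counts per library. It read 0.997, 1.07, 4.88 and 1.71 CPM in CV and 0.368 to 0.423 CPM in EV. The parent gene Ndufs6 fell by 0.63 on the log2 scale.

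Complex II, succinate dehydrogenase, links the tricarboxylic acid cycle to the chain and had 4 of 4 genes down, with a median of -0.83. Sdhd, one of its membrane anchors, stood at 228, 237, 240 and 234 CPM in CV and at 118, 115, 121 and 113 CPM in EV. No EV library reached the lowest CV library, and the log2 fold change was -1.005 ± 0.07 (adjusted p = 6.68e-08). Sdha, the flavin-bearing catalytic subunit, ran from 204 to 255 CPM in CV and from 128 to 140 CPM in EV (-0.77 ± 0.11, adjusted p = 5.14e-05). Sdhb, the iron-sulfur subunit, ran from 199 to 251 CPM in CV and from 112 to 131 CPM in EV (-0.87 ± 0.12, adjusted p = 3.62e-05). With library totals Sdhb and Sdhd stayed among the members called lower, at -0.39 and -0.52.

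Complex III, the cytochrome bc1 complex, had 9 of 9 nuclear genes down, with a median of -0.64. Uqcrq, a small accessory subunit, fell the most, from 1305, 1266, 929 and 1035 CPM in CV to 462, 411, 481 and 541 CPM in EV (-1.26 ± 0.12, adjusted p = 5.89e-07). Every EV library was below every CV library. Cyc1, the cytochrome c1 haem protein, showed the smallest fall of the complex, from a range of 190 to 236 CPM to one of 155 to 180 CPM (-0.37 ± 0.11, adjusted p = 0.00839). With library totals Cyc1 lay at 0.11 and Uqcrq at -0.77. The Rieske protein Uqcrfs1 (-0.64 ± 0.10) and the core protein Uqcrc1 (-0.59 ± 0.10) lay between them.

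Complex IV, cytochrome c oxidase, counted here with Ndufa4, which was first assigned to complex I and is now placed in complex IV, had 12 of 15 nuclear genes down, with a median of -0.72. Cox6c fell the most among called genes, from 679, 736, 594 and 588 CPM in CV to 314, 320, 296 and 267 CPM in EV (-1.12 ± 0.10, adjusted p = 2.87e-07). Cox4i1, the usual form of the regulatory subunit 4, fell from 702 to 891 CPM in CV to 414 to 452 CPM in EV (-0.89 ± 0.09, adjusted p = 9.72e-07). Neither gene's groups overlapped. Cox5a was at 311 to 407 CPM in CV and 225 to 248 CPM in EV (-0.54 ± 0.12, adjusted p = 0.00168).

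Several complex IV subunits exist in paired forms for different tissues or conditions. Among the common forms, Cox6a1 (-0.59), Cox6b1 (-0.47), Cox7a2 (-0.34) and Cox8a (-0.74) fell. Cox7a2l, which takes part in supercomplexes, fell by 0.40 on the log2 scale. With library totals Cox6b1, Cox7a2 and Cox7a2l lay above 0, at 0.02, 0.14 and 0.08. The 3 complex IV genes that did not pass were the forms typical of other tissues or of hypoxia, all at a few CPM or less. Cox6b2, the testis form, was at 0.825 to 2.59 CPM in CV and 0 to 1.26 CPM in EV (-1.62 ± 0.75, adjusted p = 0.0859). Cox7a1, the heart and muscle form, gave -0.85 ± 0.68 and Ndufa4l2, a hypoxia-inducible relative of Ndufa4, gave -0.56 ± 0.49. Their groups overlapped, and no shift between forms was detectable at this depth.

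Complex V, the ATP synthase, had 15 of 16 nuclear genes down, with a median of -0.76. All 5 genes of the catalytic F1 head fell, with a median of -0.81. Atp5b, its catalytic beta subunit, stood at 1078, 1170, 1008 and 1055 CPM in CV and at 662, 640, 640 and 633 CPM in EV (-0.74 ± 0.08, adjusted p = 3.96e-06). Atp5a1, the alpha subunit, ran from 501 to 570 CPM in CV and 336 to 365 CPM in EV (-0.64 ± 0.09, adjusted p = 3.73e-05). Atp5e, the epsilon subunit, fell the most, from 515 to 707 CPM in CV to 262 to 309 CPM in EV (-1.09 ± 0.11, adjusted p = 1.27e-06). All 8 genes of the stalk and membrane part fell, with a median of -0.76. The c ring, which turns as protons pass, is encoded by 3 genes for 1 mature protein: Atp5g1 (-0.95) and Atp5g3 (-0.70) fell, and Atp5g2 read -0.04 ± 0.31.

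Counts of Atp5g2 cannot be told apart from those of its copy. The processed pseudogene Gm10175 matches Atp5g2 over 645 bp with 0 mismatches, and it held a mean of 3873 counts per library beside 195 for Atp5g2 itself. With the copy's counts added, the level was 289, 275, 265 and 263 CPM in CV and 197, 191, 196 and 206 CPM in EV. The sum fell (-0.47 ± 0.06, adjusted p = 2.5e-05), with no overlap between the groups. In EM vs CM the gene row alone gave 0.66 ± 0.31, mostly from EM replicate 1 (28.4 CPM against 8.48 to 11.9 in the other EM libraries), and the sum fell (-0.27 ± 0.06, adjusted p = 0.00399). Cox7c with Gm12338 (192 bp, 0 mismatches), Atp5l with Gm10221 (309 bp, 0 mismatches), Ndufab1 with Gm4459 and Ndufb4 with the member Ndufb4c (390 bp, 0 mismatches, annotated as a processed pseudogene) kept their falls when their copies were added, at -0.63, -0.61, -0.52 and -0.57.

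All 13 mitochondrial-encoded members lay below 0 in EV vs CV on the TMM scale, and 10 of them fell, with a median of -0.49. Of all genes 24.9% fell and 25.5% rose. With library totals the median was -0.0006 (0.11 with near-identical copies added), beside 0.49 for all genes. On that scale 1 fell (mt-Atp6) and 1 rose (mt-Nd1), against 10.3% and 54.6% of all genes. The mt-Atp6 row has an identical copy, described below, and its fall was smaller with the copy added (-0.58 against -1.09, TMM scale). Their share of all counts was 8.7 to 10.9% in CV and 9.59 to 10.2% in EV, ranges that overlap.

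Identical copies of mitochondrial DNA in the nuclear genome, annotated as unprocessed pseudogenes, took a large part of these counts. Gm10925 carries 678 bp of mt-Atp6 with 0 mismatches and held a mean of 241116 counts per library, beside 61709 for mt-Atp6. Gm28661 carries 681 bp of mt-Co2 with 0 mismatches (222153 counts beside 90616), and Gm28437 carries 783 bp of mt-Co3 with 0 mismatches (147941 beside 76755). The stretch from position 300 to 379 of mt-Atp6, counted from its first base, is shown with that of its copy because reads from it cannot be assigned to either; the letters come from the GENCODE M21 transcripts.
mt-Atp6: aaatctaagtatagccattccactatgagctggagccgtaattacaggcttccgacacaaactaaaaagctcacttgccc
Gm10925: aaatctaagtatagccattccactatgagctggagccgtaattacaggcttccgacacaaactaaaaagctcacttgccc

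With its copy added, mt-Atp6 had the smaller standard error. The mt-Atp6 row alone stood at 7238, 5655, 4857 and 3390 CPM in CV and at 1961, 2561, 3176 and 2250 CPM in EV (-1.09 ± 0.23, adjusted p = 0.000953). The sum stood at 18790, 23590, 24710 and 19820 CPM in CV and at 13560, 14170, 16030 and 14500 CPM in EV (-0.58 ± 0.10, adjusted p = 0.000138). The groups did not overlap in either version. In the joint rows mt-Co1 (-0.69), mt-Co2 (-0.38), mt-Co3 (-0.53), mt-Nd3 (-0.34) and mt-Nd4l (-0.35) fell as well. The call of mt-Co2 in EM vs CM depended on the copy, at 0.28 ± 0.22 for the row alone (adjusted p = 0.333) and -0.27 ± 0.09 with copies (adjusted p = 0.035).

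**Figure D2:**
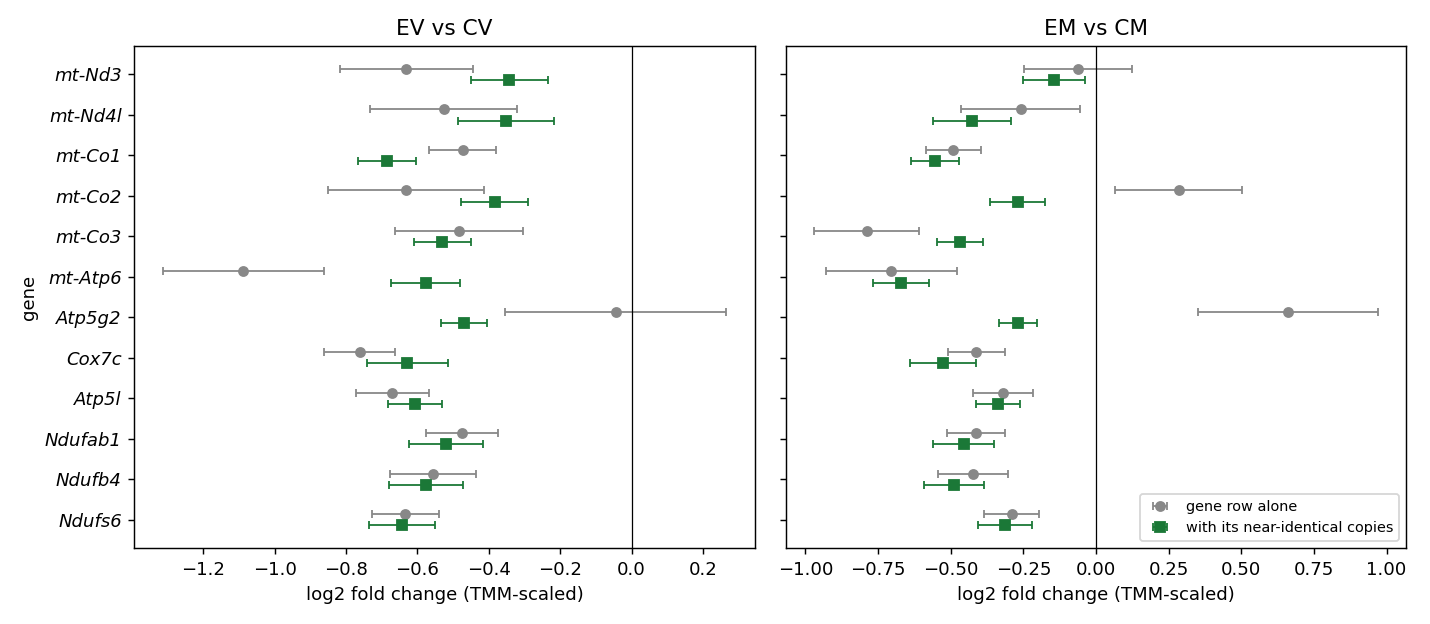
Log2 fold change with its SE (x axis, TMM scale) for 12 members that have a near-identical copy elsewhere in the table, for the gene row alone (circles) and for the gene with its copies (squares), in EV vs CV (left) and EM vs CM (right). With copies, mt-Atp6 moves from -1.09 to -0.58 on the left, and mt-Co2 and Atp5g2 move from above 0 to below it on the right.

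Other mitochondrial-encoded members had no such copy among the genes of the table and are read from their own rows. Copies outside the table were not searched for. Cytochrome b, mt-Cytb, stood at 9822, 12360, 13170 and 9758 CPM in CV and at 7587, 7619, 8755 and 7454 CPM in EV (-0.52 ± 0.12, adjusted p = 0.00228). Its groups did not overlap. The complex I subunits mt-Nd2 (-0.35 ± 0.11) and mt-Nd4 (-0.49 ± 0.11) fell, and mt-Atp8 did so from 20010 to 32130 CPM in CV to 18980 to 20630 CPM in EV (-0.38 ± 0.11, adjusted p = 0.0113), with a small overlap. Of these genes mt-Nd2 and mt-Atp8 lay above 0 with library totals, at 0.14 and 0.11, as did mt-Co1 (0.01) and mt-Co3 (0.01). On that scale mt-Cytb read -0.03 and mt-Nd4 read -0.0006, and none of these genes was called. The 3 members that did not pass were mt-Nd1 (-0.15 ± 0.10, or 0.33 with library totals), mt-Nd5 (-0.30 ± 0.14, adjusted p = 0.0816) and mt-Nd6 (-0.71 ± 0.37, adjusted p = 0.125). mt-Nd6, the one member encoded on the light strand, differed widely among the CV libraries, at 768, 977, 366 and 340 CPM.

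The ratio of the nuclear sum to the mitochondrial-encoded sum is free of the scaling. As a log2 ratio it was -1.96, -2.10, -2.49 and -2.05 in CV and -2.39, -2.47, -2.51 and -2.42 in EV. Every EV library was below 3 of the CV libraries, and CV replicate 3 lay within the EV range. The group means were -2.15 ± 0.24 and -2.45 ± 0.058 (SD, n = 4). Without CV replicate 3 the difference went from -0.30 to -0.41, and over all omissions of a library it ran from -0.41 to -0.23. By the mean of logs over the members it was -0.20. The difference between the class medians was -0.18, or -0.33 without CV replicate 3. With near-identical copies added it was -0.28. As a share of all counts the nuclear members took 2.24, 2.33, 1.94 and 2.15% in CV and 1.84, 1.77, 1.79 and 1.80% in EV, so on this scale no EV library reached the lowest CV library. The very short mt-Atp8 made up 19.8 to 25.5% of the mitochondrial sum in the deposited counts, which are rescaled by gene length. The ratio without it was -1.78 ± 0.211 in CV and -2.05 ± 0.059 in EV.

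**Figure D3:**
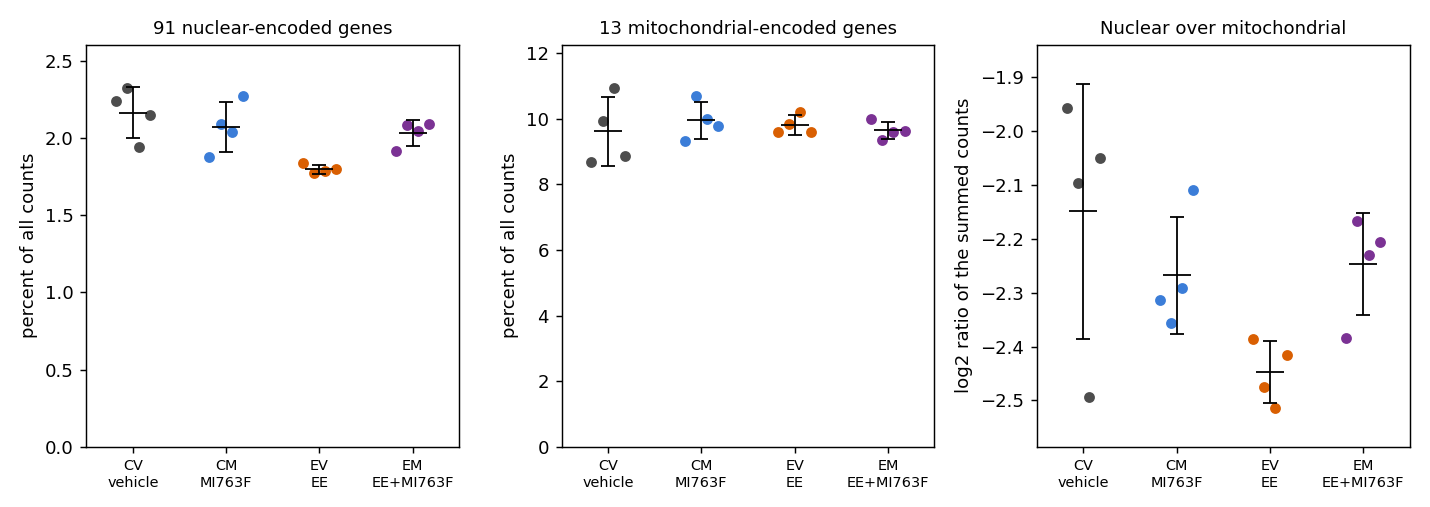
Summed counts of the 91 nuclear-encoded members (left) and the 13 mitochondrial-encoded members (middle) as percent of all counts, and the log2 ratio of the sums (right), for each library (points) with the group mean and SD (bars). The nuclear share is lowest in EV, at 1.77 to 1.84%, while the mitochondrial-encoded shares of the 4 groups overlap.

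In mice given MI763F, EE again left nuclear members below controls relative to the median gene. In EM vs CM, which shares no library with EV vs CV, 65 of 91 nuclear members fell and 0 rose, against 18.6% and 19.4% of all genes. The median was -0.36, beside 0.00 for all genes. With library totals 10 rose and 10 fell, against 45.6% and 7.24% of all genes. Their median on that scale was 0.01, beside 0.38 for all genes. All 65 were also among the 81 that fell in EV vs CV, which is 100% of the one list and 80.2% of the other. With 81 of 91 members called in EV vs CV a large overlap is likely, and the overlap over all genes was not counted. The log2 fold change was higher in EM vs CM than in EV vs CV for 89 of 91 nuclear members. Over all 12918 genes tested it was higher for 6607. With library totals these counts were 83 nuclear members and 4997 of all genes. Across these 91 genes, which are not independent replicates, the fold changes of the comparisons gave a Pearson correlation of 0.874 and a Spearman correlation of 0.789.

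Complex II kept all 4 of its falls in EM vs CM, with a median of -0.51. Complex I had 28 of 38 down with a median of -0.36, complex III 7 of 9 with -0.36, complex IV 10 of 15 with -0.42 and complex V 14 of 16 with -0.34. Uqcrq stood at 1161, 1009, 1105 and 1067 CPM in CM and at 553, 634, 647 and 680 CPM in EM (-0.79 ± 0.12, adjusted p = 8.96e-05). The groups did not overlap, and the gene also fell with library totals (-0.41). Atp5b fell by 0.39 on the log2 scale (adjusted p = 0.00192), and Cyc1 at -0.11 ± 0.11 and Ndufc2 at -0.06 ± 0.07 did not pass. Of 13 mitochondrial-encoded members 7 fell and 0 rose, with a median of -0.46, against 18.6% and 19.4% of all genes. With library totals 2 fell and 3 rose, against 7.24% and 45.6% of all genes. Among these calls mt-Co3 (-0.42) and mt-Co2 (0.66) are rows with identical copies. With copies added they read -0.47 and -0.27 on the TMM scale. The log2 ratio of the nuclear to the mitochondrial-encoded sum was -2.31, -2.36, -2.29 and -2.11 in CM and -2.38, -2.17, -2.23 and -2.21 in EM. These ranges overlap, and the means were -2.27 ± 0.11 and -2.25 ± 0.095. By the mean of logs over the members the difference, EM minus CM, was -0.07.

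With MI763F alone no member passed the test. In CM vs CV 0 nuclear and 0 mitochondrial-encoded members passed by edgeR, where 0.0929% of all genes were called in either direction. At an unadjusted p under 0.05 there were 8 nuclear members (8.79%) and 2 mitochondrial-encoded ones, beside 10.5% of all genes. DESeq2 also called 0 members, and 1.71% of all genes. The nuclear median was -0.08 and the mitochondrial-encoded median 0.02. Atp5e, at 515 to 707 CPM in CV and 449 to 576 CPM in CM, gave -0.25 ± 0.11 (adjusted p = 0.439). Atp5k gave -0.20 ± 0.09, and the groups of both genes overlapped.

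Nuclear members lay higher with EE and MI763F than with EE alone, relative to the median gene. In EM vs EV 9 of 91 nuclear members rose and 0 fell, against 1.51% of all genes that rose and 0.178% that fell. Their median was 0.27, beside 0.00 for all genes, and 63 of 91 lay higher at an unadjusted p under 0.05, against 8.92% of all genes. With library totals 0 rose, 27 lay higher at an unadjusted p under 0.05 (4.7% of all genes on that scale), and the median was 0.16 beside -0.11 for all genes. The 9 calls all had adjusted p values from 0.0352 to 0.0495. Without any one of the EV libraries, or without EM replicate 2, 3 or 4, 0 remained called, and without EM replicate 1 there were 19. The count at an unadjusted p stayed between 47 and 66 through these omissions. DESeq2 called 31 up, and 3.63% of all genes. Other lists, described below, had EM vs EV medians of 0.20 (tricarboxylic acid cycle), 0.14 (import and carriers), 0.13 (electron carriers) and 0.10 (assembly factors). Medians were 0.08 for cytosolic and 0.07 for mitochondrial ribosomal proteins, 0.07 for mitochondrial transcription and RNA and 0.01 for nuclear regulators, all on the TMM scale.

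**Figure D4:**
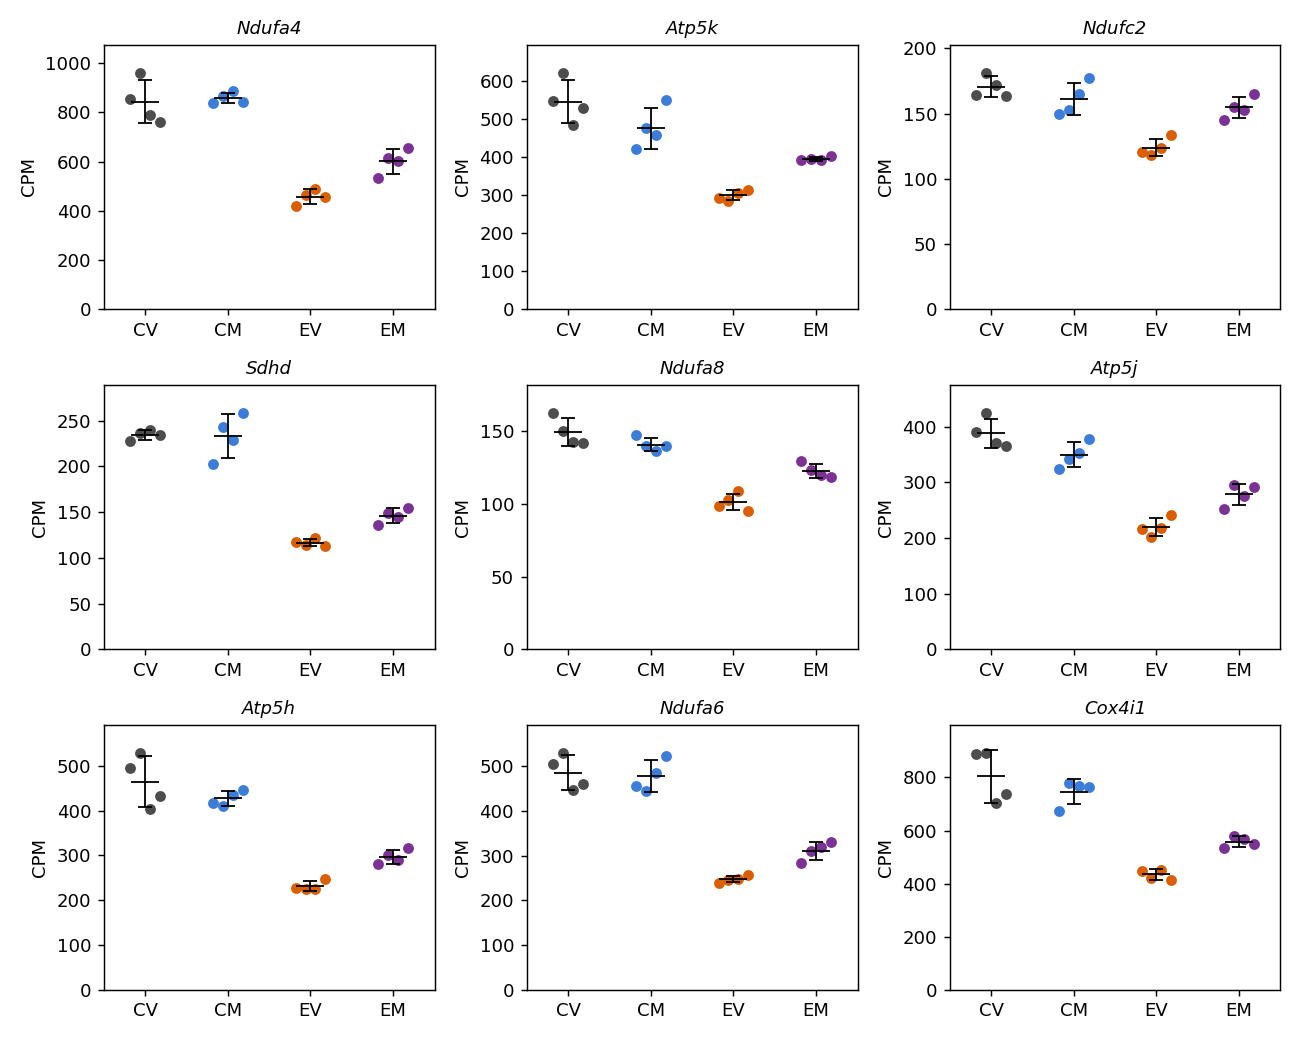
CPM (y axis, TMM scale) of the 9 nuclear members that rose in EM vs EV, for each library (points) with the group mean and SD (bars). In all 9 panels the EM libraries lie above the EV libraries and below the CV mean. The genes were picked by the EM vs EV test, which makes a gap between EV and EM likely.

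The 9 genes came from complexes I, II, IV and V. Atp5k, the e subunit of the ATP synthase membrane part, stood at 548, 622, 485 and 531 CPM in CV, 421, 477, 459 and 550 CPM in CM, 293, 285, 305 and 315 CPM in EV, and 392, 395, 392 and 403 CPM in EM. The 4 EM libraries all lay above the highest EV library and below the lowest CM library. The log2 fold change of EM vs EV was 0.40 ± 0.09 (adjusted p = 0.0362). Ndufa4 stood at 420, 465, 491 and 456 CPM in EV and 534, 613, 604 and 657 CPM in EM (0.39 ± 0.09, adjusted p = 0.0352). Sdhd stood at 136, 149, 145 and 155 CPM in EM, above its 113 to 121 CPM in EV and below its 203 to 258 CPM in CM (0.32 ± 0.07, adjusted p = 0.0404). Atp5h, the d subunit of the peripheral stalk, stood at 228, 225, 226 and 248 CPM in EV and 281, 300, 289 and 317 CPM in EM (0.36 ± 0.08, adjusted p = 0.0434).

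The other genes called were Ndufc2 (0.32), Ndufa8 (0.28) and Ndufa6 (0.33), accessory subunits of complex I, Atp5j (0.35), a stalk subunit of complex V, and Cox4i1 (0.36). In all of them the EM libraries lay above the EV libraries without overlap. Being called in this comparison makes such a gap likely, so the gap adds nothing to the calls. The share of all genes with such a gap was not counted. EM replicate 1 was the lowest EM library for 56 of 91 nuclear members (61.5%), and for 30.2% of all genes tested. Among the mitochondrial-encoded members 0 passed in EM vs EV by edgeR or DESeq2 and 2 were higher at an unadjusted p under 0.05, with a median of 0.12 and a range of -0.15 (mt-Cytb) to 0.52 (mt-Co2). The log2 ratio of nuclear to mitochondrial-encoded sums was -2.39 to -2.51 in EV and -2.17 to -2.38 in EM, so the groups only just failed to overlap, with EM replicate 1 next to the EV libraries.

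The test of whether the EE effect differed with the ligand, the interaction, called 0 members, where 0.132% of all genes were called. At an unadjusted p under 0.05, 56 of 91 nuclear members were higher in this term, against 8.09% of all genes, and 26 with library totals, against 4.44%. The nuclear median was 0.34 beside 0.01 for all genes, and the mitochondrial-encoded median was -0.0049. DESeq2 called 20, all up, where it called 2.31% of all genes up. The smallest adjusted p among named members was that of Atp5k, at 0.60 ± 0.13 (adjusted p = 0.0671 by edgeR). The comparisons EV vs CV and EM vs EV share the EV libraries, so a low EV value enters both, and their values are given side by side only: -0.87 and 0.40 for Atp5k, -0.88 and 0.39 for Ndufa4, -1.005 and 0.32 for Sdhd.

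The promoters of the nuclear members were examined because the genes moved together. Of 91 nuclear members 74 had a promoter of 250 bases before to 50 after the start in the RefSeq table (GRCm38.p6). Each was searched on both strands for 5 short words known as sites of regulators of respiratory genes or of estrogen receptors. The shown promoters belong to 4 of the genes called in EM vs EV, 3 with matches to several words and Ndufa4 with none. Among the other called genes, Ndufa6 and Ndufa8 matched the NRF1 word only, and Ndufc2 and Atp5j matched no word. Cox4i1 had no promoter in that table. Capitals mark the matches, on either strand.
Atp5k chr5:108434350-108434649, minus strand: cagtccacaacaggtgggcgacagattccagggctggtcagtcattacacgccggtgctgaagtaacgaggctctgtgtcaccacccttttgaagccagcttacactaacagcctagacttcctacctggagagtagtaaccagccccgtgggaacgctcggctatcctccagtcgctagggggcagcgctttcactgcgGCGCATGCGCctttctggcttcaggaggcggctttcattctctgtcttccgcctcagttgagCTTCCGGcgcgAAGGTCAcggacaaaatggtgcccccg
Sdhd chr9:50603800-50604099, minus strand: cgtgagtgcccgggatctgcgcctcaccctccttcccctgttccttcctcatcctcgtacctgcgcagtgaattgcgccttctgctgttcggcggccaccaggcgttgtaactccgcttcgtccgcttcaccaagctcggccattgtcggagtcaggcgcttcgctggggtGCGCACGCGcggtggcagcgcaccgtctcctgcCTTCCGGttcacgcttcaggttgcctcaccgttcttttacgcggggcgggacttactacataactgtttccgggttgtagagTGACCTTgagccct
Atp5h chr11:115419870-115420169, minus strand: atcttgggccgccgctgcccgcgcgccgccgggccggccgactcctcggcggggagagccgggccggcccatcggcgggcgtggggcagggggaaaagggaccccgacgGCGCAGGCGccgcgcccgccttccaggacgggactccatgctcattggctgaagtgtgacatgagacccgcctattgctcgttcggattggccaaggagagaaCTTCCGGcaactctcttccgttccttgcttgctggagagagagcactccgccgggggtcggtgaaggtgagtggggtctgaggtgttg
Ndufa4 chr6:11907401-11907700, minus strand: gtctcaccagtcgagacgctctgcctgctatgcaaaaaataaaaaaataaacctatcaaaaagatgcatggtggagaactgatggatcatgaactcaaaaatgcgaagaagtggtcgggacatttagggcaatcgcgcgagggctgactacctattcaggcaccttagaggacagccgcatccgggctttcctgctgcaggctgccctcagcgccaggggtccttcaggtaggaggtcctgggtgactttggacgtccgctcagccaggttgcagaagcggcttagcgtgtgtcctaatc

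The NRF1 word GCGCANGCG occurred in 21 of 74 member promoters (28.4%), in 13.8% of the promoters of tested genes and in 6.5% of all promoters of the table. The ETS word CCGGAAG, as bound by GABPA, occurred in 17 (23.0%, beside 18.6% and 9.1%). The YY1 word AAGATGGCG occurred in 7 (9.5%, beside 3.4% and 1.5%). The word AAGGTCA of the estrogen-related receptors occurred in 8 (10.8%, beside 3.4% and 4.7%). The inverted estrogen receptor element, whose arms share the letters GGTCA with that word, occurred in 0 of the member promoters, in 0 of the 9446 promoters of tested genes and in 0.1% of all promoters. The median EV vs CV log2 fold change of members with and without a match, not tested for a difference, was -0.66 and -0.67 for NRF1, -0.74 and -0.66 for ETS, -0.72 and -0.66 for YY1 and -0.68 and -0.66 for the estrogen-related receptor word. A match is only a run of letters, and a window without one says nothing of the factor.

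Of 14 genes of these and other nuclear regulators, 4 rose and 4 fell in EV vs CV (28.6% each way, near the 25.5% and 24.9% of all genes), with a median of 0.13. Ppargc1a, a coactivator of mitochondrial genes, stood at 2.35, 3.59, 3.64 and 3.60 CPM in CV and at 0.603, 0.729, 1.57 and 0.998 CPM in EV (-1.76 ± 0.30, adjusted p = 0.000173). No EV library reached the CV range. Esrra, the gene of an estrogen-related receptor, fell from 18.3 to 24.4 CPM in CV to 11.7 to 13.7 CPM in EV (-0.77 ± 0.12, adjusted p = 0.000112). Nrf1 (-0.36, adjusted p = 0.0692), Gabpa (0.11), Yy1 (-0.08) and the mitochondrial transcription factor Tfam (0.04) did not pass. Nfe2l2, the regulator of the oxidative stress response, rose (1.29 ± 0.17, adjusted p = 1.76e-05).

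Other mitochondrial gene lists lay nearer to the median gene than the nuclear subunits in EV vs CV, with the counts below given against the same 24.9% down and 25.5% up of all genes. Of 19 genes of the tricarboxylic acid cycle and pyruvate dehydrogenase 15 fell and 1 rose (Pdhx, 0.34), with a median of -0.56, and Suclg2 fell the most (-1.20). Of 41 assembly factors 21 fell, Cox20 the most (-1.36), and 2 rose, Cox19 the most (0.77), with a median of -0.31. Of 32 import and carrier genes 19 fell and 1 rose, with a median of -0.31, the fall of Phb2 being -0.81. That list's one rise was Slc25a4 (1.17), an ADP/ATP carrier.

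Of 78 mitochondrial ribosomal proteins 31 fell and 5 rose, with a median of -0.21, from Mrpl14 (-1.15) to Mrps18a (2.01). Of 76 cytosolic ribosomal proteins, short and abundant transcripts of another machinery, 33 fell and 0 rose, with a median of -0.21 and Rps2 the largest fall called (-0.78). Of 30 genes of mitochondrial transcription and RNA 11 fell (Polg2, -1.03) and 1 rose (Twnk, the helicase of mitochondrial DNA, 1.23), with a median of -0.18. Of 19 electron carrier genes 6 fell (Gpd2, -0.95) and 2 rose (Pdss1, 0.92), with a median of 0.01. Exon length and the change had a Spearman correlation of 0.02 across the 82 subunits, which are not independent replicates, with medians of -0.635 in the shortest and -0.743 in the longest 25% of them. Across all genes these medians were -0.14 and 0.07. Mean level and the change had a Spearman correlation of -0.30 across the subunits and of -0.25 across all genes. The part of length and level in the members' values was not tested.

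**Figure D5:**
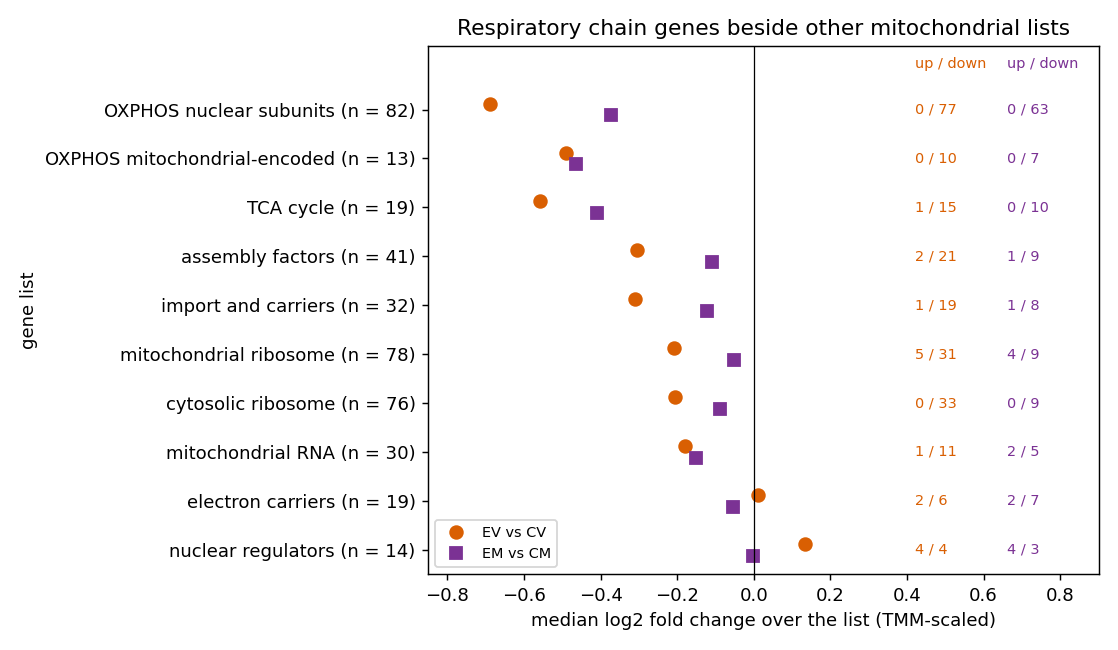
Median log2 fold change (x axis, TMM scale) of the nuclear subunits, the mitochondrial-encoded genes and 8 other lists in EV vs CV (circles) and EM vs CM (squares), with the number of genes called up and down at the right. The nuclear subunits have the lowest median in EV vs CV, at -0.69, and the mitochondrial-encoded genes in EM vs CM, at -0.46; library totals shift every median up by about the shift of all genes, which takes most lists above 0.

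In EM vs CM, where 19.4% of all genes rose and 18.6% fell, the same lists gave 0 up and 10 down for the tricarboxylic acid cycle, 1 and 9 for assembly factors, 1 and 8 for import and carriers, 4 and 9 for mitochondrial ribosomal proteins, and 0 and 9 for cytosolic ribosomal proteins. Mitochondrial transcription and RNA gave 2 up and 5 down, electron carriers 2 and 7, and nuclear regulators 4 and 3. The share that fell was below that of all genes for both kinds of ribosomal protein (11.5 and 11.8%) and for mitochondrial transcription and RNA (16.7%), and it was highest among these lists for the tricarboxylic acid cycle (52.6%). With library totals every one of these list medians except that of the tricarboxylic acid cycle (-0.07) lay above 0 in EV vs CV: 0.18 for assembly factors, 0.17 for import and carriers, 0.28 for either kind of ribosomal protein, 0.30 for mitochondrial transcription and RNA, 0.50 for electron carriers and 0.62 for nuclear regulators, beside 0.49 for all genes. On that scale 44 mitochondrial and 48 cytosolic ribosomal protein genes rose (56.4 and 63.2%, beside 54.6% of all genes), and 2 and 1 fell. Marker lists are given next for EV vs CV on the TMM scale, where 25.5% of all genes rose and 24.9% fell. Of 9 hepatocyte markers 7 fell and 1 rose, of 12 macrophage markers 10 rose, of 8 lymphoid and neutrophil markers 5 rose, of 10 endothelial markers 6 rose, of 10 stellate markers 3 rose and 1 fell, of 5 cholangiocyte markers 2 rose, and of 5 red cell markers 5 rose. The share of stellate markers that rose (30%) was near that of all genes. With library totals 5 hepatocyte markers fell and 3 rose, and 9 endothelial markers rose and 0 fell. On that scale 54.6% of all genes rose and 10.3% fell. Of the muscle and brown fat markers only Cidea was measured, at 0 to 0.569 CPM without EE and 3.54 to 39.3 CPM with EE. The part of these other cell types in the members' values was not tested.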

How the data were processed

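Per the labels' protocols, liver RNA was extracted with TRIzol, poly(A) RNA was selected and libraries were built with an NEBNext Ultra kit. The submitters' processing notes name GRCm39, STAR and Salmon; their versions, the annotation, the counting step and any use of strand were not stated there. The authors deposited whole-number estimated counts for 13006 genes in 16 libraries. They are not raw reads: in genes that reach 0 somewhere, the lowest value above 0 had a median of 101.5 where exons span under 150 bp and of 1 from 4000 bp. Values were tested as deposited, so standard errors and depth are approximate, most of all for the many short members. Gene names came from GENCODE M21 (an earlier build) and matched 12692 identifiers.

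Groups and replicate numbers came from the titles. The members and the gene lists were chosen with earlier results of these data known. Genes passing filterByExpr (12918) were scaled with TMM factors. The robust quasi-likelihood test of edgeR 4.0.16 (R 4.3.3) used every library, a mean for each group and 12 residual degrees of freedom. The Benjamini-Hochberg adjustment ran over all genes tested and the threshold was 0.05; called means past it, rose and fell give its direction. A standard error is the log2 fold change over the root of its F value. The interaction is the EM minus EV difference less the CM minus CV difference. Sums, ratios and list medians are descriptions without a test.

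Named genes were all mitochondrial-encoded members, the largest called fall of each complex in EV vs CV, members called in EM vs EV, fixed sets of core subunits and tissue forms, and the extremes of each list; names beyond these were chosen after their values were seen. Copies are transcripts on the same strand at least 95% identical over at least 100 bp and 50% of the shorter one (BLAST+ 2.17.0); they were added to members as an alternative chosen after seeing the data, as were their sum with library totals and the count at an unadjusted p. Other alternatives were library totals, RLE factors, factors without mitochondrial-encoded rows, no filter, 1 CPM in 8 libraries, DESeq2 1.42.0, limma 3.58.1 with a trend (prior count 2), a fit of only those groups in a comparison, a replicate block and each library left out. The procedure was tested on simulated counts. Sequences came from the RefSeq promoter table (GRCm38.p6) and the M21 transcripts. Python 3.11.15 with matplotlib 3.10.9 drew the figures.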

Additional observations from a re-analysis of the deposited data

Results flagged for a closer look

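In a group of 4 libraries a value was singled out when its gap to the nearest of the others exceeded the share of the group's range that Dixon's 95% limit allows. This was checked in 284 groups of 4 and met in 16, where chance gives about 1 in 20 (5%). EM replicate 1 was the low library for Cyc1 (160 CPM, the others 196 to 203), Uqcrc1 (137, the others 167 to 171), Atp5b (699, the others 808 to 827) and Cox20 (47.1, the others 59.1 to 60.4), and the high one for Cox7a2 (249, the others 226 to 228). EV replicate 4 was low for Uqcrfs1 (112, the others 129 to 132) and Atp5g3 (347, the others 408 to 417), and high for Atp5h (248, the others 225 to 228) and Suclg2 (101, the others 81.5 to 84). CM replicate 1 was low for Cox4i1 (675, the others 766 to 779) and high for Cox7a1 (6.39, the others 2.50 to 2.93). CV replicate 1 was low for Ndufv1 (127, the others 137 to 139) and Ppargc1a (2.35, the others 3.59 to 3.64). Among mitochondrial-encoded genes, mt-Nd4 was low in EM replicate 2 (5220, the others 5663 to 5720) and mt-Cytb high in EV replicate 3 (8760, the others 7454 to 7619). The mitochondrial-encoded sum with its copies was 15.1% of counts in CM replicate 2 and 14.2 to 14.3% in the other CM libraries.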

How the results depend on the processing

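Library totals were the setting that changed most. With them the nuclear members called in EV vs CV were 3 up and 36 down, and the mitochondrial-encoded ones 1 up and 1 down; in EM vs CM they were 10 up and 10 down, and 3 up and 2 down; in EM vs EV 0 nuclear members were called and 27 were higher at an unadjusted p, and in the interaction 26. Of all genes on that scale 54.6% rose and 10.3% fell in EV vs CV, and 45.6% rose and 7.24% fell in EM vs CM. The cause was not tested. Named genes called on at least 1 scale whose sign turned with library totals were, in EV vs CV, mt-Nd1 (0.33), mt-Nd2 (0.14), mt-Co1 (0.0134), mt-Co3 (0.0082), mt-Atp8 (0.11), Ndufc2 (0.0267), Ndufs1 (0.13), Ndufv1 (0.0003), Cyc1 (0.11), Cox6b1 (0.0165), Cox7a2 (0.14), Cox7a2l (0.0843) and Yy1 (0.41). In EM vs CM they were mt-Nd1 (0.31), Atp5k (0.10), Ndufc2 (0.31), Ndufa8 (0.18), Atp5j (0.0462), Sdhb (0.0364), Uqcrc1 (0.0945), Atp5a1 (0.0339), Cox6b1 (0.11), Cox7a2l (0.20), Atp5g3 (0.0443), Pdhx (0.34) and Yy1 (0.36). Called on neither scale, 3 further named genes changed sign in EV vs CV, as did 10 for EM vs CM. With near-identical copies added, mt-Co2 (-0.27) and Atp5g2 (-0.27) reversed in EM vs CM. The difference in the log2 ratio of nuclear to mitochondrial-encoded levels was also taken with the mean of logs in place of sums. It then turned sign in CM vs CV (0.0247, or -0.12 by sums) and in EM vs CM (-0.07). It was 0.12 in the interaction (0.32 by sums) and -0.20 in EV vs CV (-0.30 by sums).

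DESeq2 called 31 nuclear members up in EM vs EV and 20 in the interaction, where it called 3.63% and 2.31% of all genes up. Leaving out each library in turn gave 77 to 82 nuclear falls in EV vs CV and 53 to 64 in EM vs CM, where 0 to 1 nuclear member rose (1 without CM replicate 2 or 4 or EM replicate 2 or 3). It gave 0 to 19 calls in EM vs EV and 0 to 3 in the interaction (1 without CV replicate 3, 3 without CM replicate 4, 2 without EM replicate 1). The nuclear minus mitochondrial-encoded difference in median ran from -0.33 to -0.11 in EV vs CV and from -0.27 to -0.0029 in CM vs CV, both lowest without CV replicate 3.

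No pairing of the samples by replicate number was visible. Libraries with the same number correlated at -0.0524 to 0.0957 in their deviations from the group means, and those with other numbers at -0.146 to 0.0919. With the replicate number as a block, EM vs EV gave 5 nuclear calls; every other count of calls was within 1.5 times of that reported. RLE factors, factors without mitochondrial-encoded rows, no filter, 1 CPM in 8 libraries and limma kept every count of calls within 1.5 times. Of named values, 334 of 335 kept direction and side of the threshold with RLE factors, 330 of 335 with limma, 312 of 335 with DESeq2, 257 of 335 with library totals and 250 of 268 with a fit of only the groups compared, where 15 lost and 3 gained the call. Depth limits Ndufs6b, Cox6b2, Cox7a1 and Ndufa4l2, all at a few CPM.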

Other observations

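Within groups, 1 library often held the lowest value for many nuclear members. In CV it was replicate 3, lowest for 47 of 91 (51.6%, beside 24.9% of all genes tested), and replicate 2 was lowest for 1 (1.1%, beside 25.6%). In CM it was replicate 1, for 50 of 91 (54.9%, beside 25.1%). In EV no library held more than 35 of 91 (replicate 2, 38.5%, beside 22.7%).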
